A study of Mus musculus with 9 samples.

Results

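Mitochondria exchange metabolites through the carriers of solute carrier family 25 (genes named Slc25a) and take up nearly all of their proteins through the translocases of the outer (Tomm) and inner (Timm) membrane. The genes described here are those on the array whose symbol starts with Slc25a, Timm or Tomm and goes on with a number. They were found on 107 of 22690 probe sets and make up 54 of 12393 genes, 33 of them carriers and 21 import subunits. Each probe set combines several short probes for 1 transcript into a single signal, and the brightest on average stood for its gene. Of the 54 genes, 48 were bright enough to be tested, 28 carriers and 20 import subunits. The genes were chosen by name, not by a cut on their group differences, although earlier results of these data were known.

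Striatal RNA came from male C57BL/6J mice aged 56 days, with 3 mice and 3 arrays in each of 3 groups. Control mice received saline, METH mice methamphetamine and MPTP mice MPTP, and all 9 animals shared strain, sex and age and carried no listed transgene. Methamphetamine releases dopamine from nerve terminals and is toxic to them at high exposure, and MPTP is turned into a compound that dopamine neurons take up and that blocks complex I of the respiratory chain. How much was injected, how often, and how long before the striatum was taken is not stated in the labels, and neither injection shows by itself how many dopamine terminals were lost in these mice.

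Most carriers sit in the mitochondrial inner membrane and pass nucleotides, phosphate, amino acids, carboxylates and cofactors between cytosol and matrix. They are encoded in the nucleus and must be imported themselves. The TOM complex brings precursors across the outer membrane. The TIM23 complex with its motor then pulls precursors with a cleavable presequence into the matrix, while small TIM chaperones guide the hydrophobic carriers through the intermembrane space to the TIM22 complex, which inserts them into the inner membrane. Loss of the small TIM DDP1, encoded by TIMM8A in human, causes deafness with dystonia, a disorder that involves the basal ganglia.

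The deposited signals ran from 0.342 to 84013, and the array medians from 1110.5 to 1233, the highest on METH 2. Spearman correlations between arrays were 0.97 to 0.985. Ratios of 3' to 5' control signal, a gauge of RNA quality, did not all single out the same arrays. For Gapdh METH 2 was lowest, at 0.732 against 0.785 to 0.858 elsewhere. For pyruvate carboxylase METH 3 and METH 2 were lowest, at 1.42 and 1.72 against 2.16 to 3.38 elsewhere. For the transferrin receptor MPTP 1 was highest, at 3.73. Of the 6 striatal spiny neuron markers, Penk had signals of 47496 to 59113, Ppp1r1b 27711 to 35822 and Drd2 14795 to 20550, while Pdyn, at 1360.6 to 2199.9, lay closer to the array medians. Of these 6 markers 4 were lower after METH and 5 after MPTP, with medians of -0.08 and -0.07, and Tac1 after METH had an unadjusted p of 0.0285. The cortical markers Neurod6 and Tbr1 were too dim to be tested. Both were highest on Control 1, at 1088.6 and 850.5, against at most 569.5 and 477.3 on the other arrays. The choroid plexus marker Ttr ranged from 2853 on MPTP 2 to 65370 on Control 1. Folr1, another choroid plexus marker, was highest on METH 2, at 1470.4. Whether the dissection differed between the animals was not tested. The samples were whole tissue, so fewer cells of a type and less RNA per cell cannot be told apart. Glial markers differed between the groups that are compared here. All 8 microglial markers tested of 9 on the array were higher after each toxin, with medians of 0.26 for METH and 0.20 for MPTP on the log2 scale. The 9 markers summed to signals of 41789 to 46817 on the control arrays, 50460 to 51544 on the METH arrays and 47393 to 51829 on the MPTP arrays. The summed signal of the 8 astrocyte markers was 87052 to 91974, 93996 to 100933 and 95527 to 103902 on the same arrays. That separation of the sums rested on Gfap. Without it the other 7 summed to 82032 to 85538, 83038 to 88857 and 84177 to 90306, which overlap. Of the 8 astrocyte markers 7 were higher and 1 lower after METH, and 6 were higher and 2 lower after MPTP. Slc1a3 had a log2 fold change of -0.30 after METH. Besides Gfap, Aqp4 was brighter on every toxin array, at 6228 to 6699, than on any control array, at 5048 to 5359. The median log2 deviation of the 8 markers was -0.16 to -0.03 on the control arrays. It was 0.03 to 0.12 on the METH arrays and 0.07 to 0.16 on the MPTP arrays. Among the 7 oligodendrocyte markers 4 were higher and 3 lower after METH, with a median of 0.11. All 7 were higher after MPTP, with a median of 0.16. Sox10 and Cldn11 were brighter on every toxin array than on any control array. The largest METH value, for Sox10, was 0.64 by limma (unadjusted p = 6.6e-05, adjusted p = 0.175). The summed signals of the 7 markers overlapped between the groups. None of the glial markers was listed at 0. The part of this glial difference in the results below was not tested.

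No carrier and no import subunit passed the test in METH against control, MPTP against control or METH against MPTP. The test was limma on log2 signals, with Benjamini-Hochberg adjustment over the 7964 genes tested and a threshold of 0.05. Over all genes 0.0126% passed in METH against control and 0.0126% in MPTP against control, 1 gene each, the astrocyte gene Gfap. In METH against MPTP 0% passed. The smallest adjusted p among the 48 genes was 0.543 in METH against control, 0.873 in MPTP against control and 0.999 in METH against MPTP. At an unadjusted p under 0.05 there were 3 of the 48 in METH against control, all lower, where 8.25% of all genes were called and 3.05% were called lower. There were 3 in MPTP against control, again all lower, where 5.49% of all genes were called and 1.95% lower. METH against MPTP had 1, which was higher, beside 2.85% called and 1.56% called higher.

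The precision of the arrays bounds the difference in signal of the probe set that stood for each gene. It sets no bound for other probe sets of that gene or for single cell types within the tissue. The 95% interval of the log2 fold change lay between -1 and 1, that is within a 2-fold difference in either direction, for all 48 genes in each of the 3 comparisons, beside 97.9%, 98.2% and 98.6% of all genes in METH against control, MPTP against control and METH against MPTP. It lay between -0.5 and 0.5 for 41 of 48 genes in METH against control, 45 in MPTP against control and 42 in METH against MPTP. Over all genes tested the shares within this narrower range were 72%, 75% and 78.9%. Median log2 fold changes were close to 0. In METH against control the 28 carriers had a median of -0.05 and the 20 import subunits -0.04, beside 0.00 over all genes. In MPTP against control the medians were -0.03 and -0.06, beside 0.01, and the 2 comparisons share their control arrays. Estimates below 0 were found for 17 of 28 carriers and 13 of 20 import subunits after METH, and for 15 and 14 after MPTP, where 49.7% and 48.2% of all genes lay below 0. In METH against MPTP they were found for 15 and 10, beside 52.9% of all genes.

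**Figure D1:**
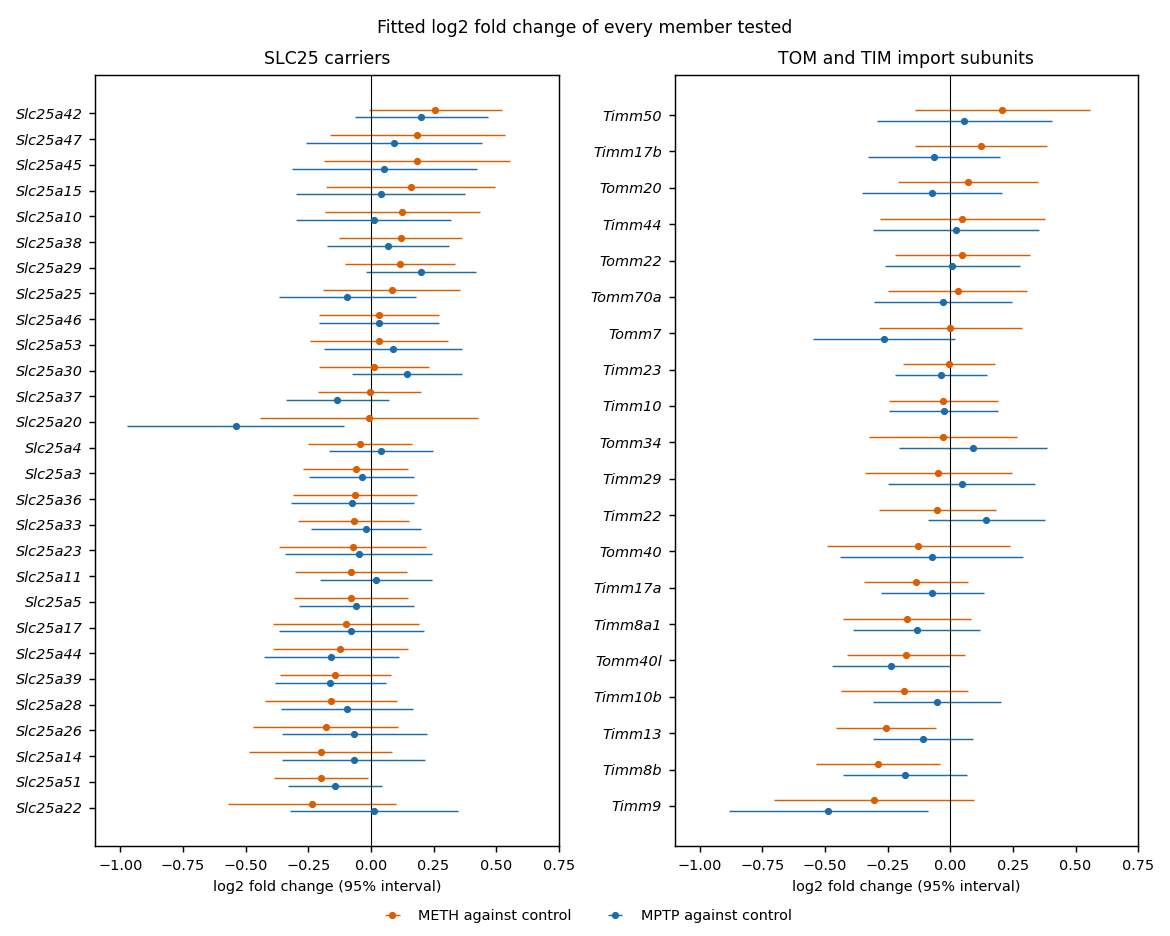
Fitted log2 fold change and 95% interval of each of the 28 carriers (left) and 20 import subunits (right) for METH against control (orange) and MPTP against control (blue), ordered by the METH estimate. All intervals lie between -1 and 1. Timm9 and Slc25a20 have the lowest MPTP estimates, at -0.49 and -0.54.

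TIM22 and the small TIMs shared a sign after METH. All 8 of their genes tested had an estimate below 0 in METH against control, with a median of -0.18, and none passed the test. Timm8a1, Timm22, Timm29 and Timm10b also had another probe set above the filter with a METH difference above 0, at 0.18, 0.18, 0.14 and 0.04. A further Timm10b probe set gave -0.17. In MPTP against control 6 of 8 were below 0, with a median of -0.08. The METH count fell to 5 of 8 and its median to -0.07 when the signals of all probe sets of a gene were averaged. It was 7 of 8 without Control 1, and 6 of 8 without Control 3 or without METH 3. The median deviation of the 8 genes from the mean of the 9 arrays was 0.19, 0.03 and 0.08 on the control arrays, -0.05, -0.03 and -0.12 on the METH arrays, and 0.03, 0.01 and -0.02 on the MPTP arrays. The METH arrays were thus the lowest, and MPTP 1 lay above the lowest control array.

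Timm13, Timm8b and Timm9 had the lowest METH estimates of this group, and the 200 bases before the start of each are shown, 5′ to 3′ along the gene. They come from RefSeq, build GRCm38.p6, which lists 300 bases around the start, 250 before and 50 after, for 45 of the 54 genes. Capitals mark the motif GCGCATGCG or its reverse complement CGCATGCGC, a site type of nuclear respiratory factor 1, which regulates many mitochondrial genes. Timm13 lies on the minus strand at chr10:80900970-80901169, Timm8b on the plus strand at chr9:50603701-50603900 and Timm9 on the minus strand at chr12:71136676-71136875.
Timm13: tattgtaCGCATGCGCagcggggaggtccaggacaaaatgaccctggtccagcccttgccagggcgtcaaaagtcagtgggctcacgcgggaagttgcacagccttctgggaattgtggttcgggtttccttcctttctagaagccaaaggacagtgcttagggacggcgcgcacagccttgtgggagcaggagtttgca
Timm8b: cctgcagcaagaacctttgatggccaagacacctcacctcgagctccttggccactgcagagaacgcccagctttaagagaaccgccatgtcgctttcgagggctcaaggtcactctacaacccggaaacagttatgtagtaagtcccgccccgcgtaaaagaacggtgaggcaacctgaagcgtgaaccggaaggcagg
Timm9: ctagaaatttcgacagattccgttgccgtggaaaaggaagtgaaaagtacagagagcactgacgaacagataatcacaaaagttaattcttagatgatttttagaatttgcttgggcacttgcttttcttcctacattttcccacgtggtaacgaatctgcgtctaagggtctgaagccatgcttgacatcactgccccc
The motif was searched on both strands of the full 300 bases, and since the letters overlap on both strands, hits on either were counted once per gene. It was found in 1 of 19 import subunits with a promoter, Timm13, 193 bases before the start, and in 0 of 26 carriers. Of all 27025 genes with such a window 1.95% held it. A match is a description of the sequence, and a promoter with no match lacks only these letters in this window.

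Timm13, which pairs with Timm8a1 to chaperone precursors in the intermembrane space, had signals of 6986, 6190 and 6202 in control 1 to 3, 5736, 5154 and 5326 in METH 1 to 3, and 5810, 5916 and 6229 in MPTP 1 to 3. All 3 METH arrays lay below all control arrays and all MPTP arrays, while MPTP and control overlapped. The means were 6459.4 ± 456.0, 5405.1 ± 299.0 and 5985.0 ± 217.9 (SD, n = 3 each). The log2 fold change of Timm13 was -0.26 ± 0.09 (SE) for METH against control, with an unadjusted p of 0.0176 and an adjusted p of 0.543, and -0.11 ± 0.09 for MPTP against control. It was -0.15 ± 0.09 for METH against MPTP.

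Timm8b, a paralogue of Timm8a1, had 5535, 4884 and 4762 in control, 4172, 3690 and 4595 in METH, and 4541, 4744 and 4094 in MPTP. Every toxin array lay below every control array. The log2 fold changes of Timm8b were -0.29 ± 0.11 for METH (unadjusted p = 0.0272, adjusted p = 0.543) and -0.18 ± 0.11 for MPTP. Both genes were measured by 1 probe set above the brightness filter.

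Timm9 forms the main small TIM hexamer together with Timm10. Its signals were 1113, 991 and 888 in control, 696, 1106 and 676 in METH, and 684, 767 and 679 in MPTP. METH 2 lay at the control level and the other 2 METH arrays beside the MPTP arrays, all of which were below control. The log2 fold change of Timm9 was -0.49 ± 0.18 for MPTP (95% interval -0.88 to -0.09, unadjusted p = 0.0214, adjusted p = 0.873) and -0.30 ± 0.18 for METH, which moved to -0.53 without METH 2 and to -0.18 without METH 3. Its probe set was among the dimmer ones, with a mean log2 signal of 9.69 where the filter lay at 9.53, and a dimmer Timm9 probe set that the filter left out had differences of -0.15 for METH and -0.06 for MPTP. The partner Timm10 had 6132, 5079 and 5604 in control, 5372, 5556 and 5519 in METH, and 5784, 5629 and 5078 in MPTP. These values overlapped throughout, and the log2 fold change of Timm10 was -0.03 ± 0.10 in both comparisons with control.

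Timm8a1, the mouse counterpart of human TIMM8A, had 3006, 2382 and 2386 in control, 2311, 2280 and 2262 in METH, and 2496, 2112 and 2451 in MPTP. The METH arrays lay below the control arrays by a small margin, with a log2 fold change of -0.17 ± 0.11 (adjusted p = 0.702). Control 1 stood above the other controls, and without it the value was -0.06. The other Timm8a1 probe set above the filter gave 0.18, the opposite sign. Timm10b, which tethers the hexamer to the TIM22 complex, had -0.18 ± 0.11 after METH, or -0.10 without METH 2, and -0.05 ± 0.11 after MPTP. Timm22, the channel-forming subunit that inserts carriers, had 3974, 3886 and 4414 in control, 4215, 4221 and 3433 in METH, and 4565, 4569 and 4413 in MPTP. METH 3 was the lowest array, and all METH arrays lay below all MPTP arrays, a log2 fold change of -0.20 ± 0.10 for METH against MPTP with an unadjusted p of 0.089. Without METH 3 it was -0.10, and the second Timm22 probe set gave 0.02. Timm29, a further TIM22 subunit, had -0.05 in METH and 0.05 in MPTP, each against control. Timm8a2 was too dim to be tested, at 7 to 58.

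**Figure D2:**
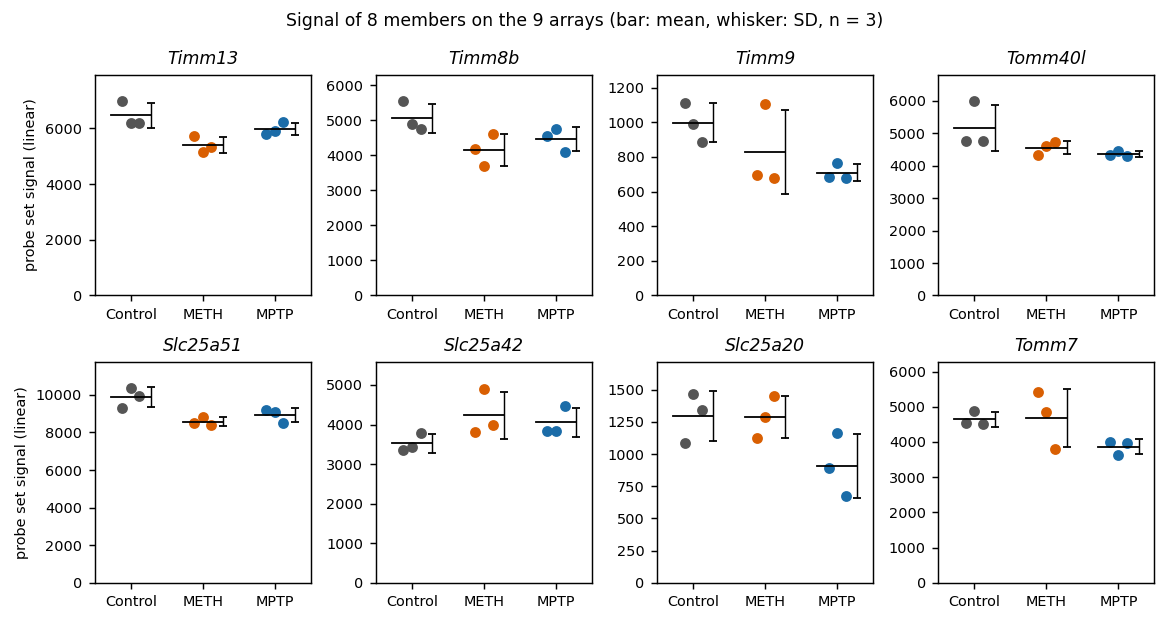
Probe set signal of 8 genes on each of the 9 arrays, on linear axes that start at 0, with the mean (bar) and SD (whisker) of the 3 arrays of a group. Timm13 and Timm8b lie lower on all METH arrays than on all control arrays, Slc25a42 lies higher, and the single high METH point of Timm9 is METH 2.

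The TIM23 complex and its motor showed no common direction. Of 5 genes tested 2 were below 0 in METH against control and 3 in MPTP against control, with medians of 0.05 and -0.04. Timm23, the channel of the complex, had 10866, 10021 and 10611 in control, 10398, 10567 and 10434 in METH, and 10775, 10162 and 9751 in MPTP. The groups overlapped, and the intervals of its log2 fold change were -0.19 to 0.18 for METH and -0.22 to 0.15 for MPTP, among the narrowest of all 48 genes. The paralogues Timm17a and Timm17b, which partner Timm23, had -0.14 ± 0.09 and 0.12 ± 0.12 after METH and -0.07 ± 0.09 and -0.06 ± 0.12 after MPTP. Timm50, the presequence receptor, had 825, 1163 and 947 in control, 1133, 1284 and 963 in METH, and 878, 1020 and 1139 in MPTP, with overlap between all groups and a METH log2 fold change of 0.21 ± 0.16, or 0.11 without METH 2. Timm44, which anchors the motor chaperone, had 0.05 ± 0.15 after METH and 0.02 ± 0.15 after MPTP. On METH 2 the median deviation of the 5 genes was 0.26, against -0.09 to 0.10 on the other 8 arrays.

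The TOM receptors and pore had 2 of 6 genes below 0 after METH, with a median of 0.01, and 5 of 6 after MPTP, with a median of -0.07. Tomm40l, a paralogue of the pore protein, had 4772, 5998 and 4756 in control, 4344, 4613 and 4722 in METH, and 4345, 4460 and 4295 in MPTP. Every toxin array lay below every control array, METH 3 by a margin of under 1%, and Control 2 stood above the other controls. The log2 fold change of Tomm40l was -0.24 ± 0.11 after MPTP (unadjusted p = 0.0491, adjusted p = 0.873) and -0.17 ± 0.11 after METH, and without Control 2 these became -0.13 and -0.06. Tomm40, the pore itself, showed the same high Control 2, with 3363, 5324 and 3415 in control, 3284, 3686 and 3879 in METH, and 3703, 3646 and 3881 in MPTP. Its groups overlapped, with -0.13 ± 0.16 after METH and -0.07 ± 0.16 after MPTP, and without Control 2 the signs turned, to 0.09 and 0.14.

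Tomm7, a small subunit that influences the assembly of the complex, had 4532, 4875 and 4514 in control, 5421, 4845 and 3803 in METH, and 4003, 3616 and 3979 in MPTP. The MPTP arrays lay below the control arrays and the METH arrays spread across both. The log2 fold change of Tomm7 was -0.26 ± 0.13 after MPTP (unadjusted p = 0.0649, adjusted p = 0.873). It came from a probe set whose name ends in x_at, a type that can bind related transcripts, and the other 3 Tomm7 probe sets gave -0.06, -0.32 and 0.16 for the same comparison. The receptors had small differences with overlapping groups. Tomm20, a receptor for presequences, had 18908, 21396 and 19315 in control, 20222, 19642 and 22826 in METH, and 18906, 22093 and 16075 in MPTP, and its log2 fold changes were 0.07 ± 0.13 and -0.07 ± 0.13. Tomm70a, the receptor that receives carrier precursors, had 0.03 ± 0.12 and -0.03 ± 0.12, and the central receptor Tomm22 had 0.05 ± 0.12 and 0.01 ± 0.12. The cytosolic cochaperone Tomm34, kept apart from the complex, had -0.03 ± 0.13 and 0.09 ± 0.13.

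The bright carriers of energy exchange differed little. Slc25a4, the adenine nucleotide translocase that trades ATP for ADP in brain and muscle, had 35387, 33027 and 35284 in control, 35000, 32256 and 33326 in METH, and 33142, 34445 and 39300 in MPTP. Its log2 fold changes, from an x_at probe set, were -0.04 ± 0.09 after METH and 0.04 ± 0.09 after MPTP. The other Slc25a4 probe sets above the filter gave -0.09 and -0.18 after METH, and -0.05 and -0.13 after MPTP. Slc25a5, the second widely expressed translocase, had -0.08 ± 0.10 and -0.06 ± 0.10, also from an x_at probe set. Slc25a3, which imports the phosphate for ATP synthesis, had 43591, 43924 and 46043 in control, 41672, 46559 and 40118 in METH, and 46028, 44065 and 40229 in MPTP, with log2 fold changes of -0.06 ± 0.09 and -0.04 ± 0.09. All groups overlapped for these genes, and the 95% intervals of the METH comparison were -0.25 to 0.16 for Slc25a4, -0.31 to 0.15 for Slc25a5 and -0.27 to 0.15 for Slc25a3. Slc25a11, the oxoglutarate carrier of the malate-aspartate shuttle, had -0.08 ± 0.10 and 0.02 ± 0.10.

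Among nucleotide and cofactor carriers 8 of 10 genes tested were below 0 in each comparison with control, with medians of -0.07 and -0.06. Slc25a51, the mitochondrial NAD+ transporter, had 9309, 10356 and 9939 in control, 8527, 8830 and 8386 in METH, and 9175, 9082 and 8512 in MPTP. Every toxin array lay below every control array. The log2 fold change of Slc25a51 was -0.20 ± 0.08 after METH (unadjusted p = 0.0382, adjusted p = 0.552) and -0.14 ± 0.08 after MPTP. A dimmer Slc25a51 probe set gave 0.02 after METH and -0.29 after MPTP. Slc25a42, which carries coenzyme A into the matrix, went the other way, with 3349, 3424 and 3794 in control, 3806, 4906 and 3978 in METH, and 3840, 3841 and 4475 in MPTP. Every toxin array lay above every control array, with METH 1 and Control 3 only just apart, and the log2 fold changes of Slc25a42 were 0.26 ± 0.12 (unadjusted p = 0.0558, adjusted p = 0.614) and 0.20 ± 0.12. Without METH 2 the METH value was 0.15, and without MPTP 3 the MPTP value was 0.13. Slc25a25, a calcium-regulated ATP-Mg/phosphate carrier, had 0.08 ± 0.12 and -0.09 ± 0.12.

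The amino acid and carnitine carriers had 3 of 6 genes below 0 after METH and 2 of 6 after MPTP. Slc25a20, the carnitine-acylcarnitine carrier of fatty acid oxidation, had the largest estimate of all 48 genes. Its signals were 1086, 1466 and 1341 in control, 1124, 1292 and 1448 in METH, and 891, 1162 and 671 in MPTP. MPTP 1 and MPTP 3 lay below all other arrays, while MPTP 2 fell among the control and METH values. The log2 fold change of Slc25a20 was -0.54 ± 0.19 for MPTP against control (95% interval -0.97 to -0.11, unadjusted p = 0.0196, adjusted p = 0.873), and the spread among the MPTP arrays was wide, 907.8 ± 246.0. Without MPTP 3 the estimate was -0.34. For METH against MPTP it was 0.53 ± 0.19 (unadjusted p = 0.0209, adjusted p = 0.999). The second Slc25a20 probe set gave -0.07 for MPTP against control and 0.39 for METH against MPTP.

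Slc25a22, a glutamate carrier of the inner membrane, had 12302, 8531 and 11633 in control, 9318, 8709 and 9219 in METH, and 9273, 12293 and 11011 in MPTP. The METH arrays were close together and Control 2 lay below them, and the log2 fold change was -0.24 ± 0.15 after METH, or -0.40 without Control 2, and 0.01 ± 0.15 after MPTP. Slc25a29, a carrier of basic amino acids, had 2208, 2271 and 2497 in control, 2675, 2563 and 2329 in METH, and 2505, 2616 and 2894 in MPTP. Each MPTP array exceeded each control array, with MPTP 1 and Control 3 only just apart. The log2 fold change for MPTP against control was 0.20 ± 0.10 (unadjusted p = 0.0702, adjusted p = 0.873). The other Slc25a29 probe sets above the filter gave 0.12 and -0.0008 for MPTP against control. Slc25a13, an aspartate-glutamate carrier, and Slc25a2, an ornithine carrier, were too dim to be tested, at 121 to 484 and 159 to 607. The other aspartate-glutamate carrier, Slc25a12, had no probe set with a single symbol and was not analysed here, and the same held for Slc25a18 and Slc25a27.

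Of the 5 uncoupling-type and metal carriers 4 were below 0 in each comparison with control, with medians of -0.14 and -0.09. Slc25a39, which is required for glutathione import, had 16131, 13168 and 13119 in control, 12646, 13040 and 12586 in METH, and 12970, 12172 and 12614 in MPTP. Every toxin array lay below every control array, although Control 1 stood far above the others, and the log2 fold changes were -0.14 ± 0.10 and -0.16 ± 0.10, or -0.04 and -0.06 without Control 1. They came from an x_at probe set. The other Slc25a39 probe sets gave -0.05 and -0.08 after METH, and 0.11 and -0.20 after MPTP. Slc25a14, a brain uncoupling-type protein, had 7080, 6835 and 7283 in control, 6694, 4999 and 6951 in METH, and 6222, 6898 and 7109 in MPTP. METH 2 was the low array, and the log2 fold change was -0.20 ± 0.13 after METH, or -0.05 without METH 2, and -0.07 ± 0.13 after MPTP. Slc25a30, its close relative, had 0.01 ± 0.10 and 0.15 ± 0.10, with every MPTP array above control. The mitoferrins Slc25a28 and Slc25a37, which import iron, had -0.16 ± 0.12 and 0.00 ± 0.09 after METH and -0.09 ± 0.12 and -0.13 ± 0.09 after MPTP. Slc25a46, an outer membrane protein with a part in mitochondrial shape, had 0.03 ± 0.11 in both. It belonged to the remaining carriers, with Slc25a45, Slc25a47 and Slc25a53, and all 4 were above 0 after each toxin, with medians of 0.11 and 0.07 and the highest value 0.19, for Slc25a47 after METH. The arrays of the groups overlapped for each of them.

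Counted over all 48 genes, METH and control arrays did not overlap for 7, 6 of them lower, where 13.7% of all genes had no overlap, 6.48% higher and 7.19% lower. MPTP and control arrays did not overlap for 9, 6 of them lower, where 11.3% of all genes had no overlap, 6.13% higher and 5.14% lower. METH and MPTP arrays did not overlap for 2, Timm13 and Timm22, both lower, where 7.09% of all genes had no overlap and 3.7% were lower. An exact permutation test of 3 arrays against 3 cannot go below p = 0.1, so none was run on single genes. Many estimates hung on 1 array. Of the 35 named genes, 16 had an estimate larger than its SE in METH against control, and leaving out 1 array moved 13 of these by over 1.5 times. The counts were 8 of 14 in MPTP against control and 12 of 13 in METH against MPTP.

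Probe sets of the same gene often differed in sign. Among the genes, 21 had more than 1 probe set above the filter. All probe sets of a gene shared a sign for 5 of these 21 in METH against control, 7 in MPTP against control and 9 in METH against MPTP. The 5 Tomm20 probe sets were all above 0 after METH and the 3 of Slc25a39 and the 3 of Slc25a4 all below. The 8 Slc25a5 probe sets ran from -0.23 to 0.23, and those of Timm44 from -0.19 to 0.27. Probe sets of a gene can read different transcript ends or related transcripts, and which of them reads the gene best was not tested.

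**Figure D3:**
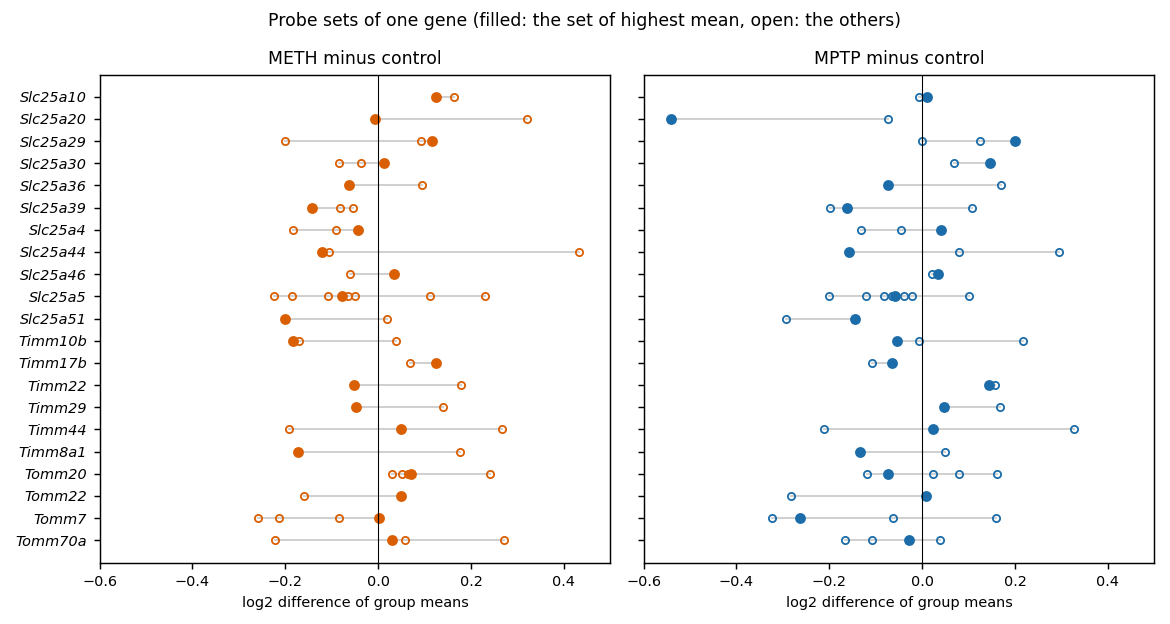
Log2 difference of group means for every probe set above the filter of the 21 genes with more than 1, for METH minus control (left) and MPTP minus control (right), with the probe set used for the gene filled. In the left panel the probe sets of 5 of 21 genes share a sign, and in the right panel those of 7.

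Other genes of import and transport are given for comparison. Of 29 other import genes (matrix chaperones, processing peptidases, the sorting machinery and quality-control proteases), 0 passed the test in any comparison, at an unadjusted p under 0.05 there were 0 in METH against control and 2 in MPTP against control, and 21 were below 0 after METH and 15 after MPTP, with medians of -0.06 and 0.00. After MPTP Gfer, the sulfhydryl oxidase of the intermembrane space, had -0.22 ± 0.09 and the motor subunit Pam16 had -0.23 ± 0.10, and after METH the matrix protease Lonp1 had -0.34 ± 0.17. Of 19 other mitochondrial transporters 17 were tested and 0 passed. At an unadjusted p under 0.05 there were 3 after METH, 2 of them lower, and 2 after MPTP, 1 of them lower. Beside both lists, 8.25% of all genes were called after METH, 3.05% lower, and 5.49% after MPTP, 1.95% lower. Cpt2, the inner membrane carnitine palmitoyltransferase that works with Slc25a20, had 0.46 ± 0.12 after METH (unadjusted p = 0.0039, adjusted p = 0.479), with all METH arrays above control, and 0.33 ± 0.12 after MPTP. The sideroflexins Sfxn3 and Sfxn1, inner membrane proteins of which Sfxn1 carries serine, had -0.28 ± 0.10 and -0.26 ± 0.10 after METH, with all METH arrays below control, and Sfxn1 had -0.23 ± 0.10 after MPTP. Respiratory chain genes were below 0 for 70 of 77 tested after METH, with a median of -0.13 and 21 genes without overlap, all lower, and for 56 after MPTP, with -0.06. Of all genes 49.7% lay below 0 after METH and 48.2% after MPTP, and 7.19% were lower without overlap after METH. Mitochondrial ribosomal proteins were below 0 for 45 and 44 of 74, with medians of -0.04 and -0.03. Whether carriers or import subunits differ from these lists was not tested.

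**Figure D4:**
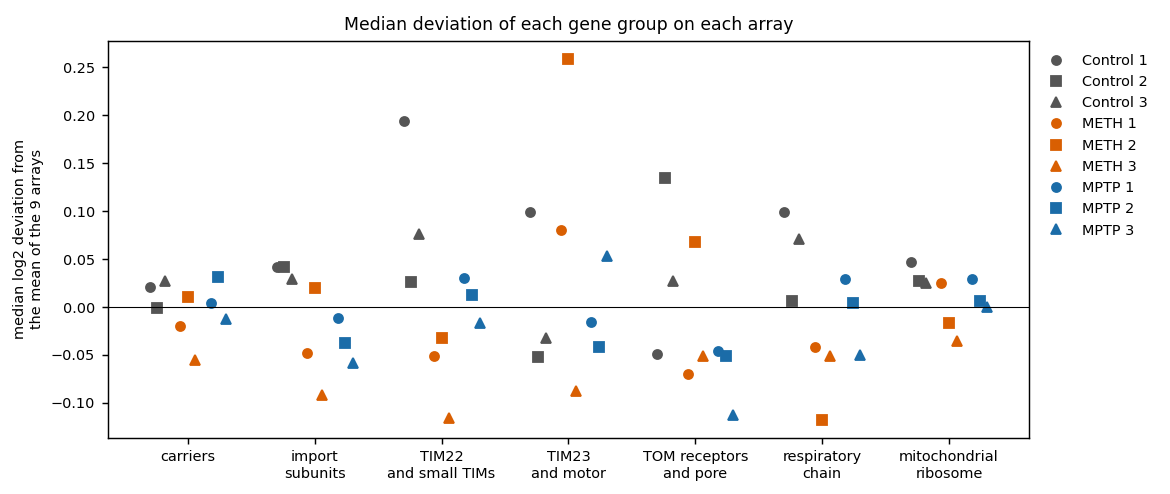
Median log2 deviation from the mean of the 9 arrays for 7 gene groups, with 1 point per array, grey for control, orange for METH and blue for MPTP, and the symbol giving the replicate number. The TIM22 and small TIM group is lowest on the METH arrays, at -0.12 to -0.03, and the TIM23 group is highest on METH 2, at 0.26.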

How the data were processed

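Striatal RNA of 9 mice was measured on single-colour Affymetrix arrays, 1 array per mouse. The authors deposited linear intensity values, and RMA is named per the submitters' processing notes, with no version. The values lack the usual RMA form (a log scale with nearly equal distributions): the deposited intensity of every array has a trimmed mean of 2500.6 with 2% left out at each end, so how probe sets were summarised stays unsettled. The labels name a larger array design than the probe annotation that matched these values.

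The deposited intensities were put on the log2 scale, with no further normalization and no pseudocount. Of 22690 probe sets 20380 had 1 symbol, 691 several, 1555 none and 64 were array controls. RefSeq's gene table (GRCm38.p6) held 20351 of the 20380, and 0 symbols changed. Tomm5 and Tomm6 were left out because their probe sets carry several symbols. Probe sets with a mean under the 40th percentile (9.53, a signal of 741.3) were left out, and the highest-mean probe set stood for a gene, which left 7964 of 12393 genes. Besides the dim genes named in the text, this left out Slc25a24, Slc25a35 and Slc25a48.

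The 9 arrays were fitted together in R 4.3.3 by limma 3.58.1 (lmFit, a mean for each group, eBayes, 6 residual and 3.93 prior degrees of freedom), two-sided, with Benjamini-Hochberg adjustment over all genes tested. A gene passed at an adjusted p below 0.05. The number of arrays limits the precision. On simulated data only the direction and mean error of the fold changes were checked, not how often a true difference passes. Arrays of a group are biological replicates per the labels, which give no batch.

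Named genes were those past the test, the 5 carriers and 5 import subunits with the smallest p in each comparison, a fixed set of subunits, the 3 brightest of each class, and in each comparison up to 2 genes of each other list. Timm29, Slc25a45, Slc25a47, Slc25a53, Sfxn1 after METH, the cell type markers and the genes too dim to be tested fall outside this rule and were named after their values were seen. The members, lists and markers were chosen with earlier results of these data known. Alternatives were other normalizations, filters, a pseudocount of 64, other probe set rules, array weights, only the groups compared, a replicate block, and leaving out each array.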

Additional observations from a re-analysis of the deposited data

How the results depend on the processing

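No carrier and no import subunit passed the test in any of the 3 comparisons under any alternative run. The count of all genes past the test was 1 in each comparison with control. In METH against control it was 0 with arrays centred on their medians and 0 with the replicate block. In MPTP against control it was 0 with median centring, with only the groups compared, with array weights and with the replicate block, and 2 with no filter. It was 0 to 2 when arrays were left out in turn in either comparison with control and 0 in METH against MPTP.

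Medians moved by little in log2 units. For METH against control the carrier median was -0.12 after median centring, -0.018 after cyclic loess, -0.024 after quantile normalization and -0.025 for the mean of all probe sets. The import median was -0.10 after median centring and -0.085 under array weights. For MPTP against control the carrier median was -0.069 after median centring and 0.011 with no filter, and the import median -0.10 with median centring. For METH against MPTP the carrier median was 0.013 after cyclic loess and 0.015 after quantile normalization, and the import median -0.028 under array weights and -0.039 where the filter was raised to the 60th percentile. Median centring shifted the median of all genes to -0.06 for METH and -0.03 for MPTP, so these medians are relative to that shift. With arrays left out in turn the carrier median ranged from -0.052 to -0.019 for METH, -0.041 to -0.0021 for MPTP and -0.022 to 0.012 for METH against MPTP, and the import median from -0.096 to -0.0002, -0.071 to -0.046 and -0.04 to 0.026.

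A sign change was counted for a named gene only where its reported estimate exceeded its SE. This held for Timm8a1 in METH against control (0.0016 with the mean of all probe sets), and in METH against MPTP for Tomm7 (-0.016 with the mean of all probe sets, -0.20 without x_at and s_at probe sets). With arrays left out in turn, METH against MPTP ranged from -0.22 to 0.019 for Slc25a14 and from -0.048 to 0.31 for Timm9, both signs turning without METH 2. The cause was not tested. For the smaller estimates of the 35 named genes, a turn in sign by at least 1 SE was counted 11 times. Each estimate was counted anew in each alternative run, and none crossed the threshold.

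Same-numbered arrays did not deviate together. The correlations of their deviations were -0.15 to 0.05 in 9 pairs, 0 of which exceeded 0.1, against -0.10 to 0.11 in 18 pairs of other numbers. The replicate block left the medians as reported, and 0 members passed with it.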
